A study of Mus musculus with 8 samples.

Results

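Fibroblast growth factor (FGF) signalling was measured here as the transcripts of 9 genes in adult mouse long bone, namely the ligands Fgf1, Fgf2, Fgf7, Fgf18 and Fgf23, the receptors Fgfr1, Fgfr2 and Fgfr3, and the receptor-like gene Fgfrl1. The genes were taken by symbol from the deposited table of 55421 genes. All 9 were found there, had counts in every library and passed the filter on low counts that left 17035 genes to test. The DoxoR group was 4 male C57BL/6 mice of genotype WT, aged 15 weeks at the start, each given 10 mg/kg doxorubicin intraperitoneally in a single dose. Doxorubicin is a chemotherapy drug that breaks DNA. The CTRL group was 4 mice of the same strain, sex, age and genotype given the saline vehicle. On day 30 the tibiae and femurs of each mouse, freed of their ends and spun to remove marrow, gave 1 library of polyadenylated RNA. The bulk libraries hold the RNA of all cells left in the bone, so fewer cells of a type and less RNA per cell cannot be told apart. The comparison asks how the ligands and receptors of the family differed between the DoxoR and CTRL bones.

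FGF ligands bind receptor tyrosine kinases on the cell surface together with heparan sulfate, and the receptors pass the signal through the adaptor FRS2 to the ERK kinase cascade. Most ligands act near the cell that makes them. FGF23 is a hormone made mainly by osteocytes and osteoblasts, and it acts on the kidney through FGF receptors joined to klotho to lower phosphate reabsorption. In the skeleton FGFR1 and FGFR2 act in cells of the osteoblast line, FGFR3 restrains the growth of cartilage, and FGF18 acts on both bone and cartilage. FGFRL1 resembles the other receptors outside the cell and lacks their kinase domain.

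Osteocyte and osteoblast markers were found in every library. Sclerostin (Sost), an osteocyte protein, lay between 40.7 and 118 CPM (counts scaled to a common library size after TMM normalization) in DoxoR bones and between 54.6 and 91.1 CPM in CTRL bones. Other osteocyte markers were lower, such as Fbln7 at 2.97 to 7.09 CPM over all libraries. The sum of 10 osteoblast markers lay between 5611 and 18407 CPM in DoxoR and between 6386 and 13171 CPM in CTRL bones. Marrow and muscle RNA remained, since 9 neutrophil markers summed to between 10198 and 21185 CPM in DoxoR and between 12736 and 22831 CPM in CTRL bones. CTRL 3 stood apart in muscle RNA, where 9 skeletal muscle markers summed to 4269 CPM, against 13713 to 35395 CPM in DoxoR bones and 22621 to 24689 CPM in the other CTRL bones. CTRL 3 and DoxoR 1 lay at the ends of the first principal component, which held 39.0% of the variance. The libraries held between 23699525 and 35747083 counts.

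The 3 genes that varied most among the CTRL mice, by the SD over the mean, were Fgf23 (76.7%), Fgf7 (45.0%) and Fgfrl1 (40.0%). Their promoter windows are shown because the variation among mice was the main feature of the values below. Each window runs from 250 bases before to 50 bases after the start of the RefSeq gene on GRCm38.p6. Windows were taken for 7 of the 9 genes, a count that does not tell whether RefSeq holds a window for the others. The 3 windows shown lie at chr6:127072652-127072951 for Fgf23 (plus strand), chr2:126034408-126034707 for Fgf7 (plus strand) and chr5:108693979-108694278 for Fgfrl1 (plus strand). Capitals mark the TATA box TATAAA, the CCAAT box CCAAT and the GC box GGGCGG on either strand.
Fgf23: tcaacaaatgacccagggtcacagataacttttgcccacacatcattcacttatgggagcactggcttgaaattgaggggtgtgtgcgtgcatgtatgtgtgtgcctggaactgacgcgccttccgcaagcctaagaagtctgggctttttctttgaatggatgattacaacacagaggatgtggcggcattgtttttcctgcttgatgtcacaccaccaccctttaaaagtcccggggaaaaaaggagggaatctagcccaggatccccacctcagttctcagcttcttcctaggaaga
Fgf7: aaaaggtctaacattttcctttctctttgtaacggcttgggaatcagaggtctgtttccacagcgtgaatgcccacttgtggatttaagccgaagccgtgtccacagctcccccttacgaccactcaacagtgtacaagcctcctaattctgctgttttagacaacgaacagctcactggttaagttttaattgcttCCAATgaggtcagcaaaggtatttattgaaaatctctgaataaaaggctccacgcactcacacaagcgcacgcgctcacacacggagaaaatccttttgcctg
Fgfrl1: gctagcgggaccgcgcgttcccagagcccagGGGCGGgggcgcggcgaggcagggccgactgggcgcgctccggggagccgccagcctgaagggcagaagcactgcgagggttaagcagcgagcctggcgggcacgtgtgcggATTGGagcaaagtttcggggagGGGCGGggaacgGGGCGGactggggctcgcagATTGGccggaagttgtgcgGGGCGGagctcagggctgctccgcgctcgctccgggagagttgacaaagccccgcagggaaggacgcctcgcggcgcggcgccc
The Fgf23 window held none of these motifs, and 49.0% of its bases were G or C. The Fgf7 window was the lowest of the 3 in G and C (45.7%) and held 1 CCAAT box. The Fgfrl1 window was 73.7% G and C and held 4 GC boxes and 2 CCAAT boxes. Over all 32851 windows in the RefSeq table the median was 52.7% G and C, and 13.6% held the TATA box, 37.4% the CCAAT box and 35.7% the GC box. These are matches of letters and say nothing of which factor binds.

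No FGF ligand or receptor passed the test between DoxoR and CTRL bones. In edgeR's quasi-likelihood test with Benjamini-Hochberg adjustment, 0 of the 9 genes had an adjusted p under 0.05, where the same test called 0 of 17035 genes (0%), and the smallest adjusted p among the 9 was 0.856. At an unadjusted p under 0.05 the count was also 0 of 9, beside 2.13% of all tested genes in the higher direction and 3.23% in the lower one, 5.36% in all. DESeq2, which called 29 genes in all, called 0 of the 9, and limma-voom called 0 of the 9 and 0 of all genes. In both of these tools 0 of the 9 had an unadjusted p under 0.05, whereas 1 of the 9 had one in edgeR with the marrow or muscle covariate or the replicate block, and up to 2 with 1 library left out. The DoxoR and CTRL libraries overlapped for each of the 9 genes, beside 1.64% of all tested genes that were higher without overlap and 1.95% that were lower, 3.59% in all. The median log2 difference of the 9 genes was 0.13, with 7 above and 2 below 0, and that of all tested genes was 0.04.

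**Figure D1:**
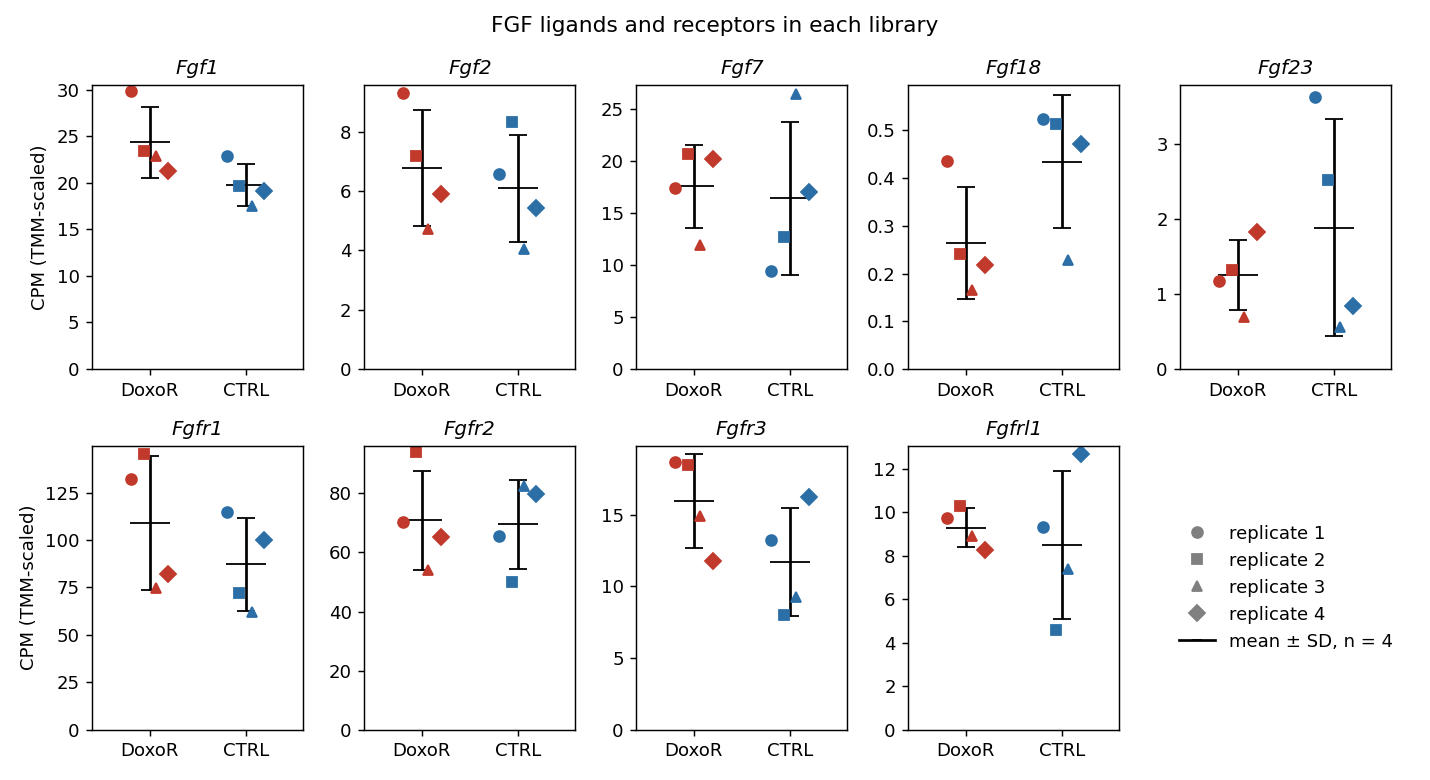
CPM (TMM-scaled, vertical axes from 0) of the 9 FGF genes in each of the 4 DoxoR (left, red) and 4 CTRL (right, blue) libraries, with the mean and SD as bars. The groups overlap in every panel, and the CTRL values of Fgf23 run from 0.559 to 3.63 CPM.

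Among the ligands that act locally, Fgf1, an FGF that binds all FGF receptors, came nearest to a difference. It measured 29.9, 23.4, 22.9 and 21.3 CPM in DoxoR 1 to 4 and 22.9, 19.7, 17.5 and 19.1 CPM in CTRL 1 to 4. CTRL 1 alone kept the groups from separating, as it lay above DoxoR 3 and DoxoR 4 while the other CTRL libraries lay below every DoxoR library. The log2 difference was 0.30 ± 0.14 (SE), with a 95% interval from 0.995-fold to 1.52-fold and an adjusted p of 0.856 in edgeR. A two-sided exact permutation test of its log2 CPM gave p = 0.0857, where 4 mice against 4 cannot go below 0.0286. DoxoR 1, the highest in Fgf1, was also the highest in the summed muscle markers (35395 CPM), and CTRL 3, the lowest in Fgf1, was the lowest in them (4269 CPM). DoxoR 4, the next highest in muscle markers (32129 CPM), was however the lowest DoxoR library in Fgf1. The log2 difference was 0.23 with the muscle marker level as a covariate and 0.23 with the marrow level, and it was 0.13 without CTRL 3 and DoxoR 1. The part of muscle RNA in the Fgf1 level was not tested beyond these values.

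Fgf2, a broadly made ligand held in the matrix, was at 9.31, 7.18, 4.71 and 5.91 CPM in DoxoR 1 to 4 and at 6.56, 8.31, 4.04 and 5.44 CPM in CTRL 1 to 4. The same 2 libraries, DoxoR 1 and CTRL 3, were its highest and lowest. Its log2 difference was 0.16 ± 0.26 (SE), and it was −0.01 with the muscle covariate and −0.05 with a covariate for residual marrow. Fgf2 shares 640 exonic bases with Nudt6 on the other strand in GENCODE M21, and Nudt6 averaged 4.53 CPM over the 8 libraries. The sources used here do not give whether the counting used strand, and without it the reads over these 640 of the 6782 exonic bases of Fgf2 cannot be told apart from those of Nudt6.

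Fgf7, the keratinocyte growth factor made by mesenchymal cells, measured 17.4, 20.7, 11.9 and 20.2 CPM in DoxoR 1 to 4 and 9.44, 12.7, 26.4 and 17.0 CPM in CTRL 1 to 4. CTRL mice spanned a wider range than DoxoR mice and held both the highest and the lowest of the 8 values. The log2 difference was 0.09 ± 0.30 (SE). CTRL 3, the highest in Fgf7, also had the highest sum of 9 stromal markers (4428 CPM, against 2652 to 3977 CPM in DoxoR bones). Of these markers only Cxcl12, Lepr and Kitl were highest in CTRL 3. Pdgfra, Pdgfrb, Postn, Dcn, Dpt and Ly6a were each highest in a DoxoR library, and Dpt was lowest in CTRL 3. The part of stromal RNA in the Fgf7 level was not tested.

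Fgf18, a ligand of osteoblasts and chondrocytes, was close to the limit of detection, with 76 counts over all 8 libraries. It had 10, 8, 5 and 5 counts in DoxoR 1 to 4, which is 0.435, 0.240, 0.165 and 0.217 CPM. The CTRL libraries had 14, 11, 9 and 14 counts, which is 0.525, 0.513, 0.229 and 0.473 CPM. Every DoxoR library lay below CTRL 1, CTRL 2 and CTRL 4, and the groups overlapped only because DoxoR 1 and DoxoR 2 exceeded CTRL 3. The log2 difference of −0.70 ± 0.40 (SE) had an interval from 0.330-fold to 1.14-fold and an adjusted p of 0.856 in edgeR. The exact permutation p was 0.0857. Counting error is large at these depths.

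Fgf23 had the widest spread of the 9 genes. It measured 1.17, 1.32, 0.692 and 1.82 CPM in DoxoR 1 to 4 and 3.63, 2.52, 0.559 and 0.844 CPM in CTRL 1 to 4. CTRL 1 and CTRL 2 were above every DoxoR library, whereas CTRL 3 was below all of them and CTRL 4 lay within their range. The mean was 1.25 ± 0.466 CPM in DoxoR and 1.89 ± 1.45 CPM in CTRL bones (SD, n = 4 each). The log2 difference was −0.58 ± 0.56 (SE), with an interval from 0.283-fold to 1.59-fold, so these libraries do not fix its direction. It was −0.02 without CTRL 1 and −0.94 without CTRL 3. With the marrow covariate it was −0.82, and with the muscle covariate −0.85. The highest CTRL value was 6.51 times the lowest, and the highest DoxoR value 2.64 times the lowest. Whether the spread itself differed between the groups was not tested.

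Fgf23 was also set against the level of a list of osteocyte markers. Log2 CPM of Fgf23 minus the mean log2 CPM of 9 osteocyte markers averaged −4.18 ± 0.576 in DoxoR and −3.71 ± 0.963 in CTRL bones (SD, n = 4 each). The difference of −0.46 had an exact permutation p of 0.4, two-sided. CTRL 1 and CTRL 2 stayed the highest of the 8 on this scale, at −2.79 and −3.02. The osteocyte markers themselves summed to 630 and 641 CPM in DoxoR 1 and DoxoR 2, 388 and 338 CPM in DoxoR 3 and DoxoR 4, and between 403 and 486 CPM in CTRL bones. Osteocyte genes differed in whether they were high in CTRL 1 and CTRL 2, where Fgf23 was high. Mepe and Sost were not, since Mepe was at 109 CPM in CTRL 1 and 123 CPM in CTRL 2, with DoxoR 1 at 203 CPM. Dmp1, an osteocyte gene left out of the 9 markers, was high in both, at 630 and 502 CPM. That is more than the 9 markers together in the same libraries (465 and 414 CPM). All 9 markers had log2 differences above 0, whereas that of Dmp1 was −1.03, so the osteocyte level depends on which genes are listed. Fgf23 was not compared with a list that held Dmp1. Phex, another osteocyte gene, was at 168 and 175 CPM in DoxoR 1 and DoxoR 2 and at 163 CPM in CTRL 1.

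**Figure D2:**
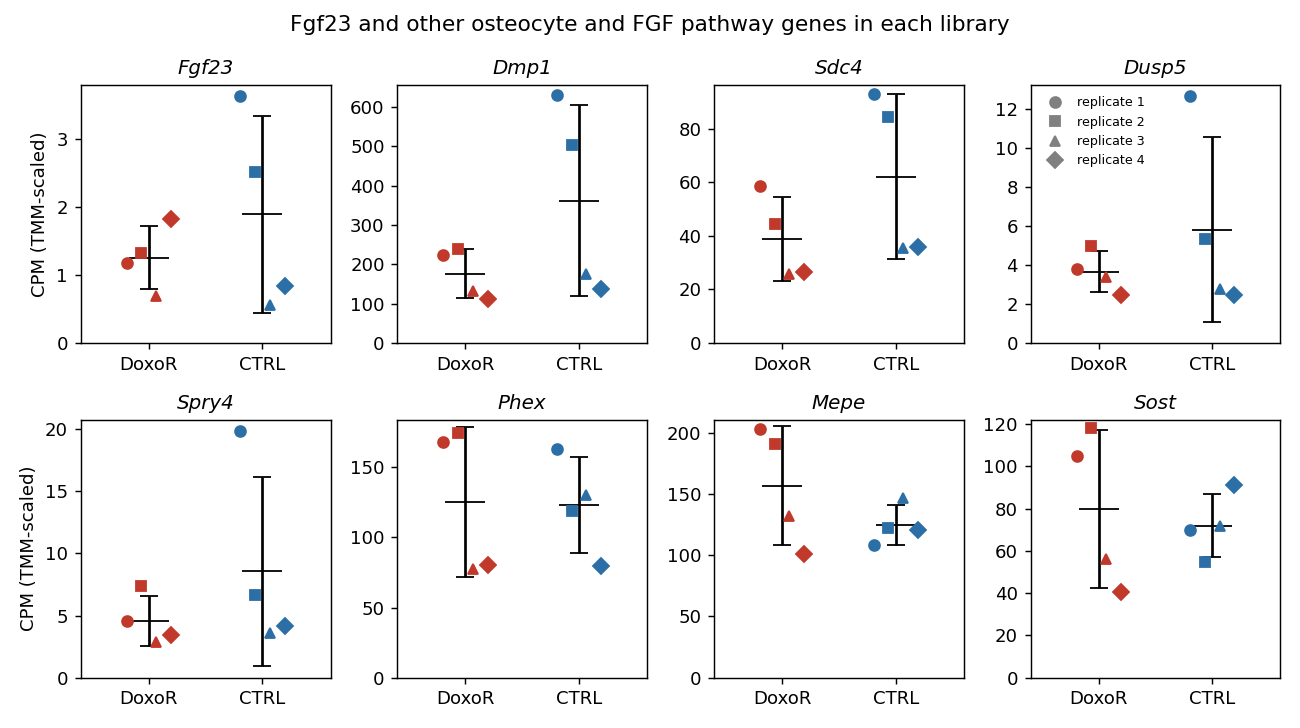
CPM (TMM-scaled, vertical axes from 0) of Fgf23, 4 genes of the FGF pathway lists and 3 osteocyte genes in each DoxoR (left, red) and CTRL (right, blue) library, with the mean and SD (n = 4) as bars and a symbol for each replicate number. CTRL 1 and CTRL 2 are the highest 2 libraries for Fgf23, Dmp1, Sdc4 and Dusp5, and not for Mepe or Sost.

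Dmp1 had the same 2 highest libraries as Fgf23. This gene encodes a matrix protein of osteocytes whose loss raises FGF23 in mice and people. It measured 222, 239, 132 and 113 CPM in DoxoR 1 to 4 and 630, 502, 176 and 138 CPM in CTRL 1 to 4. Its log2 difference was −1.03 ± 0.48 (SE), with an adjusted p of 0.856 in edgeR. Sdc4, a heparan sulfate proteoglycan of the cell surface, was at 58.6, 44.6, 25.6 and 26.4 CPM in DoxoR and at 92.8, 84.3, 35.5 and 35.8 CPM in CTRL bones. Here too CTRL 1 and CTRL 2 lay above every DoxoR library and the other 2 CTRL libraries did not. Dusp5, a phosphatase that ERK signalling induces and that acts on ERK, reached 12.7 CPM in CTRL 1 and 5.32 CPM in CTRL 2, against 2.47 to 4.99 CPM in DoxoR bones. Spry4, a feedback inhibitor of FGF receptor signalling, reached 19.8 CPM in CTRL 1, against 2.83 to 7.36 CPM in DoxoR bones. It did not share the pattern in full, since CTRL 2, at 6.67 CPM, lay below DoxoR 2, at 7.36 CPM. These genes were set beside Fgf23 after their values were seen, and CTRL 1 and CTRL 2 were also the highest 2 libraries for 611 of all 17035 tested genes (3.59%).

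Among the receptors Fgfr1 was the most abundant. It measured 132, 146, 75.0 and 82.3 CPM in DoxoR 1 to 4 and 115, 72.2, 61.8 and 100.2 CPM in CTRL 1 to 4. DoxoR 1 and DoxoR 2 were above every CTRL library and the other 2 DoxoR libraries lay inside the CTRL range. The log2 difference was 0.32 ± 0.26 (SE), with an interval from 0.835-fold to 1.86-fold. It was 0.12 with the marrow covariate, 0.22 with the muscle covariate and 0.08 without CTRL 3 and DoxoR 1. The 3 libraries highest in Fgfr1, DoxoR 2, DoxoR 1 and CTRL 1, were also the highest in the sum of 10 osteoblast markers, at 18407, 14556 and 13171 CPM, against 5611 to 9205 CPM in the other 5. Col1a1 and Col1a2 weighed most in this sum, at 6119 and 8029 CPM in DoxoR 2. DoxoR 1 and DoxoR 2 ranked above all other libraries for Sp7, Alpl, Col1a1, Col1a2, Bglap, Dlx5 and Ifitm5, but not for Runx2, Ibsp or Spp1. Ibsp and Spp1 were highest in CTRL 3 (866 and 2729 CPM), the library lowest in Fgfr1. The part of osteoblast RNA in the Fgfr1 level was not tested.

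Fgfr2 was at 70.4, 93.9, 54.1 and 65.1 CPM in DoxoR 1 to 4 and at 65.6, 49.9, 82.6 and 79.9 CPM in CTRL 1 to 4. The groups covered nearly the same range. The log2 difference of 0.03 ± 0.20 (SE) had an interval from 0.749-fold to 1.39-fold, and its sign turned with the scaling (−0.05 with library size only). In GENCODE M21 the Fgfr2 gene shares 314 exonic bases with Ctbp2 on the same strand, and Ctbp2 averaged 23.5 CPM over the 8 libraries. Gene counts do not separate the receptor's splice forms, which differ in the ligands they bind.

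Fgfr3 had the highest log2 difference of the 9 genes, at 0.45 ± 0.24 (SE). It measured 18.7, 18.5, 14.9 and 11.8 CPM in DoxoR 1 to 4 and 13.3, 8.03, 9.24 and 16.2 CPM in CTRL 1 to 4. DoxoR 1 and DoxoR 2 exceeded every CTRL library, and DoxoR 4 fell below CTRL 1 and CTRL 4. The interval ran from 0.947-fold to 1.97-fold, the adjusted p was 0.856 in edgeR and the exact permutation p was 0.143. The sum of 7 cartilage markers stood at 214, 228, 191 and 113 CPM in DoxoR and at 202, 61.4, 72.1 and 130 CPM in CTRL bones. Of these markers 6 lay above 0 in log2 difference and 0 passed the test. Their median, 1.20, was that of Hapln1, a cartilage link protein, and rested on DoxoR 3, where Hapln1 was at 45.5 CPM, against 4.48 to 9.99 CPM in the other DoxoR and 3.04 to 11.5 CPM in the CTRL bones. Acan, Col9a1 and Matn3 were also highest in DoxoR 3. Comp, a cartilage and tendon matrix protein, was at 27.1 to 35.6 CPM in every DoxoR and 10.5 to 25.0 CPM in every CTRL library. It was the only 1 of the 7 whose groups did not overlap, beside 1.64% of all tested genes that were higher without overlap. The part of cartilage RNA in the Fgfr3 level was not tested. The pseudogene Fgfr3-ps had counts in only 1 of the 8 libraries, and the reads it may have taken from Fgfr3 were not measured.

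Fgfrl1 was the most even gene in DoxoR bones, at 9.74, 10.3, 8.92 and 8.25 CPM in DoxoR 1 to 4. In CTRL 1 to 4 it was at 9.33, 4.57, 7.39 and 12.7 CPM, so both extremes of the 8 libraries were CTRL mice. The SD was 9.59% of the mean in DoxoR and 40.0% in CTRL bones, and the difference in spread was not tested. The log2 difference of the level was 0.13 ± 0.26 (SE), and it was −0.09 without CTRL 2.

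**Figure D3:**
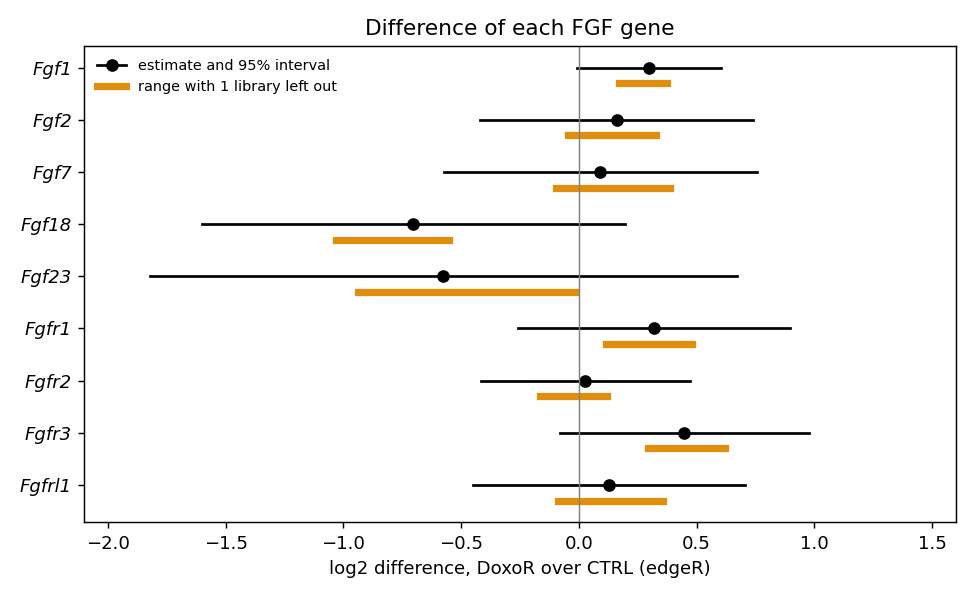
Log2 difference (DoxoR over CTRL, edgeR, horizontal axis) of each FGF gene with its 95% interval in black and, in orange, the range of the estimate with each library left out in turn. Every black interval includes 0, and the interval of Fgf23, from −1.82 to 0.67, is the widest.

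To compare levels between genes, CPM was divided by the summed length of each gene's exons in GENCODE M21, in kilobases. Averaged over the 8 libraries this level was highest for Fgfr1 (9.92 CPM per kb), followed by Fgfr2 (6.80), Fgf7 (5.23), Fgf1 (4.05), Fgfrl1 (3.20), Fgfr3 (1.93), Fgf2 (0.948), Fgf23 (0.866) and Fgf18 (0.294 CPM per kb). Among the 14330 tested protein-coding genes, 76.3% lay below Fgfr1, 17.0% below Fgf23 and 6.91% below Fgf18. The ranges of each neighbouring pair in this order overlapped over the 8 libraries. Within a library, Fgfrl1 exceeded Fgfr3 and Fgf23 exceeded Fgf18 in 8 of 8, while Fgf7 exceeded Fgf1 and Fgf2 exceeded Fgf23 in 5 of 8. Summed exons of all isoforms make genes with many isoforms look lower, so the order is approximate.

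Of the summed CPM per kb of the 4 receptor tyrosine kinases, Fgfr1 made up 54.0% ± 3.76 in DoxoR and 50.9% ± 7.88 in CTRL bones (SD, n = 4 each). Fgfr2 made up 34.4% ± 3.63 and Fgfr3 11.3% ± 1.90 in DoxoR bones, against 39.4% ± 8.41 for Fgfr2 and 9.30% ± 1.33 for Fgfr3 in CTRL bones. CTRL 3 was the 1 library in which Fgfr2, at 51.4%, exceeded Fgfr1, at 40.2%. Fgfr4, which serves mainly in liver, was below 1% in every library and had too few counts to be tested.

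**Figure D4:**
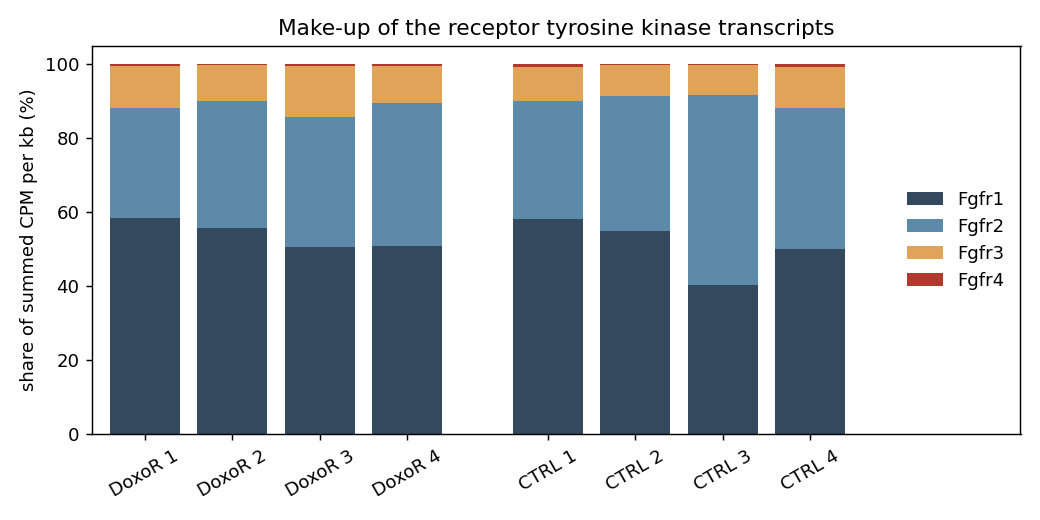
Share (%) of each receptor gene in the summed CPM per kb of Fgfr1, Fgfr2, Fgfr3 and Fgfr4, with 1 bar per library and DoxoR left of CTRL. Fgfr1 takes between 50.7% and 58.4% in DoxoR libraries, and CTRL 3 is the library with the highest Fgfr2 share, 51.4%.

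Of the 18 other family genes 5 had enough counts to be tested and 0 passed. Fgf11 and Fgf13, members of the intracellular FGF group that bind sodium channels and are not secreted, had log2 differences of 0.40 ± 0.18 and 0.38 ± 0.31 (SE). Fgf9, which acts in skeletal growth, was at 2.44 ± 0.547 CPM in DoxoR and 1.91 ± 0.475 CPM in CTRL bones (SD, n = 4 each). Fgf8 and Fgf15 had no count in any library, which allows at most 0.0761 to 0.140 CPM in a library (3 counts, counting error only). Fgf21 had 3 counts and Fgf10 had 33 counts over the 8 libraries. The klotho genes Kl and Klb, co-receptors for the hormone-like FGFs, had 9 and 15 counts over the 8 libraries. Klb had 1, 10, 1 and 2 counts in DoxoR 1 to 4, all at or near the floor except DoxoR 2, and 1 count in CTRL 3 with none in the other CTRL libraries.

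Further along the pathway 66 of 81 genes were tested, beside the 9 members, and 0 passed in edgeR in either direction (smallest adjusted p 0.856). They had 46 log2 differences above and 20 below 0, with a median of 0.07, where all tested genes had 9742 above and 7293 below 0. The median of all tested genes turned to −0.016 when scaled by library size alone, so the split by sign depends on the scaling. Of the 66 genes, 3 had an unadjusted p under 0.05 (4.55%, against 5.36% of all tested genes). These were Fgf11, Pth1r and Hpse. Pth1r, the parathyroid hormone receptor, was at 61.4 ± 14.5 CPM in DoxoR and 42.2 ± 9.98 CPM in CTRL bones, and Hpse, heparanase, which cuts heparan sulfate, at 20.0 ± 3.58 CPM in DoxoR and 27.3 ± 3.61 CPM in CTRL bones (SD, n = 4 each). Hpse was the only 1 of the 66 whose groups did not overlap, beside 3.59% of all tested genes.

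By list, none of the 11 tested co-receptors and proteoglycans, 12 heparan sulfate enzymes, 13 relay genes, 13 ERK targets and 12 FGF23 regulators passed in either direction, and their median log2 differences were 0.02, 0.12, 0.07, 0.05 and 0.08. Each of these but that of the heparan sulfate enzymes fell below 0 when certain libraries were left out singly, and stayed above 0 without the others. That of the relay genes did so only without CTRL 3 (−0.0065). Those of the co-receptors and ERK targets were also below 0 when scaled by library size alone (−0.048 and −0.032). The basement membrane proteoglycan gene Hspg2 (perlecan) stood at 0.29 ± 0.32 and the syndecan gene Sdc4 at −0.68 ± 0.39 (log2 ± SE). The glypican genes Gpc1 and Gpc6 were at 0.37 ± 0.25 and 0.06 ± 0.21. The polymerase gene Ext1 was at 0.12 ± 0.14, the sulfotransferase gene Ndst1 at 0.34 ± 0.19 and the sulfatase genes Sulf1 and Sulf2 at 0.24 ± 0.12 and −0.02 ± 0.17. The adaptor gene Frs2 was at 0.02 ± 0.10, the phosphatase gene Ptpn11 at −0.11 ± 0.10 and the kinase gene Mapk3, which encodes ERK1, at 0.27 ± 0.13.

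The readouts of FGF receptor signalling were scattered around 0. Dusp6, an ERK phosphatase induced by FGF, was at 34.7 ± 5.39 CPM in DoxoR and 36.2 ± 5.84 CPM in CTRL bones (SD, n = 4 each). The Ets factor gene Etv5 had a log2 difference of 0.27 ± 0.21 and Etv4 of 0.34 ± 0.38, and the feedback inhibitors Spry1, Spry2 and Spry4 of 0.05 ± 0.27, 0.10 ± 0.19 and −0.90 ± 0.55 (SE). Il17rd, which encodes the FGF antagonist SEF, was at 0.19 ± 0.15.

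Among the genes that act on FGF23, Phex, a peptidase whose loss raises FGF23, had a log2 difference of 0.02 ± 0.31 (SE). Galnt3, which protects FGF23 from cleavage by adding sugars, was at −0.19 ± 0.15, Furin, a protease that can cut it, at 0.32 ± 0.22, and Fam20c, a kinase that phosphorylates it, at 0.20 ± 0.18 (SE). The erythropoietin receptor gene Epor, listed because erythropoietin raises FGF23, was at −0.29 ± 0.21. The sum of 9 erythroid markers lay between 13842 and 29845 CPM in DoxoR and between 17682 and 35006 CPM in CTRL bones, and its part in the Epor level was not tested.

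**Figure D5:**
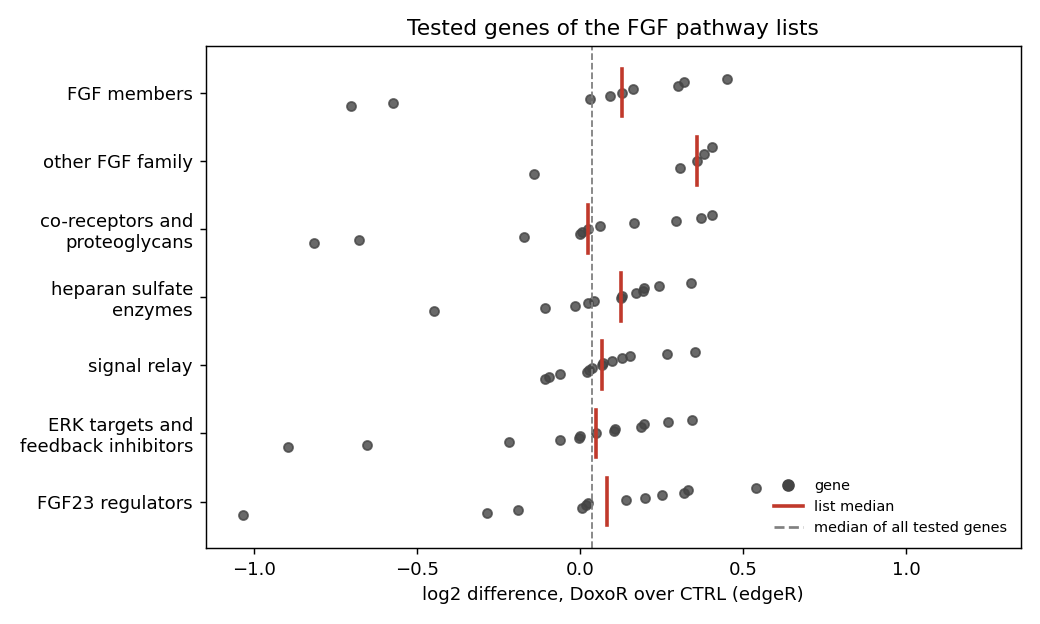
Log2 difference (DoxoR over CTRL, edgeR, horizontal axis) of each tested gene in the FGF members and 6 pathway lists, with the list median in red and the median of all tested genes, 0.04, as a dashed line. List medians lie between 0.02 and 0.36, and the points lowest in their lists include Dmp1 at −1.03 and Spry4 at −0.90.

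The genes whose levels followed each member most closely were ranked by Pearson's r of log2 CPM over the 8 libraries after the group means were taken off, among 14784 genes with a mean of at least 1 CPM. With so many candidates and 8 points each member had a first-ranked gene at 0.964 or higher, so the ranks are a description of these libraries. For Fgfr2 the first 3 were Sema6d (0.982), Spry1 (0.969) and Tprn (0.965). For Fgfr1 they were Sec31a, Sh3pxd2a and Epha2 (0.995, 0.994 and 0.994). For Fgf23 they were Ccnyl1, Xdh and Heatr6 (0.964, 0.959 and 0.958), and for Fgfr3 Angel1, Fads2 and Slc23a2 (0.996, 0.993 and 0.980).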

How the data were processed

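Polyadenylated RNA was sequenced with a stranded kit, 1 library per mouse, per the labels' protocols. The authors deposited 1 expected count per gene and library, already in whole numbers, and how they were rounded is not stated. STAR 2.5.3a and RSEM 1.3.0 are named in the submitters' processing notes with no role, beside the human build GRCh38, whereas the identifiers are of mouse genes. The sources used here give neither the annotation nor the use of strand and molecular identifiers. Of 55421 identifiers 55154 matched GENCODE M21 (GRCm38) without version, which gave positions and exon lengths only. Promoter sequences are RefSeq's.

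Genes were kept by filterByExpr (minimum count 10, minimum total 15) and scaled by TMM, and edgeR 4.0.16 in R 4.3.3 fitted a robust quasi-likelihood model with no covariate, adjusted over all 17035 genes with a threshold of 0.05. SE came from the F statistic, and log2 CPM used a pseudocount of 0.5. The fit was tested on simulated data. DESeq2 1.42.0 and limma 3.58.1 (voom) were alternatives, with other scalings and filters, covariates, a replicate block and each library left out. The members and lists were chosen with earlier results of these data known. Genes named were the members, a fixed set of pathway genes and the 2 with the smallest p in each list; others, such as Comp, Hapln1, Acan, Col9a1, Matn3, Mepe and Sost, were named after their values were seen. No 2 libraries agreed within sampling noise (chi-square per degree of freedom 29.3 to 299).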

Additional observations from a re-analysis of the deposited data

Results flagged for a closer look

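In groups of 4 libraries, the gap of the highest or lowest to its neighbour was set against the whole range for the members and the named pathway genes. Of 82 such sets, 1 exceeded Dixon's 95% critical value; chance alone gives about 1 in 20. Fgfbp3, which encodes a protein that releases FGFs from the matrix, measured 1.38 CPM in DoxoR 2, against 1.04 to 1.09 CPM in the other DoxoR libraries.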

How the results depend on the processing

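Over 170 alternative values for the 9 members, 0 were past the threshold, 157 kept the direction and 13 turned it, and the smallest adjusted p was 0.422 (Fgfr3 without CTRL 4). The direction of Fgf1, Fgf18, Fgf23, Fgfr1 and Fgfr3 held under every alternative run. Fgf2 turned to −0.050 with the marrow covariate, −0.013 with the muscle covariate and −0.18 with CTRL 3 and DoxoR 1 left out together (chosen after seeing the data), and Fgfr2 to −0.047 when scaled by library size alone and −0.011 under the marrow covariate. With 1 library left out the log2 difference ran from −0.046 to 0.33 for Fgf2, −0.10 to 0.39 for Fgf7, −0.17 to 0.12 for Fgfr2, −0.088 to 0.36 for Fgfrl1, 0.17 to 0.38 for Fgf1, −1.03 to −0.55 for Fgf18, −0.94 to −0.02 for Fgf23, 0.11 to 0.48 for Fgfr1 and 0.29 to 0.62 for Fgfr3. The sign turned for Fgf2 without CTRL 3 or DoxoR 1, for Fgf7 without CTRL 1, CTRL 2 or DoxoR 2, for Fgfr2 without CTRL 2 or DoxoR 2 and for Fgfrl1 without CTRL 2. Without CTRL 4, 1784 of all genes had an unadjusted p under 0.05, against 913 with all libraries. Fgf18 was absent under the filter of 1 CPM in 4 libraries. Fgf23 relative to osteocyte markers ran from −0.82 to −0.15. The list medians ran from −0.0065 to 0.073 for the relay genes and 0.0059 to 0.16 for the heparan sulfate enzymes, −0.098 to 0.10 for the co-receptors, −0.13 to 0.17 for the ERK targets, −0.082 to 0.24 for the FGF23 regulators, −0.027 to 0.22 for the members and 0.11 to 0.45 for the other family genes. The count of called genes, 0, was 29 in DESeq2 (7 higher and 22 lower) and 1 with no filter; the cause was not tested. Whether the replicate numbers pair the samples is not settled by these values: same-numbered deviations correlated at 0.44, −0.34, 0.49 and 0.11. The most alike CTRL library had the same number for DoxoR 1 and DoxoR 3, and another number for DoxoR 2 and DoxoR 4. With the number as a block the count of called genes was 0, as in the fit without it, with 1466 genes against 913 at an unadjusted p under 0.05; it turned no direction among the members and gave Fgf1 an unadjusted p of 0.0269 (adjusted 0.552). Fgf18 rested on 76 counts in all; among the CTRL mice Fgf23 spread over 76.7% of its mean (SD).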
